A study of Mus musculus with 12 samples.

Results

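Among 32182 genes measured in fat of mice on a high-fat diet, 73 were at least 3 times as high in epididymal adipose tissue (EAT) as in inguinal adipose tissue (IAT) in both cell fractions, adipocytes and stromal vascular cells (SVCs). These genes were selected on the measured values. TPM, a transcript level corrected for gene length and library size, was averaged over the 3 libraries of each group, and 0.1 TPM was added before each EAT/IAT ratio was formed. A gene also needed a mean of at least 1 TPM in both EAT groups, and each EAT library had to lie above each IAT library of the same fraction. The EAT/IAT differences below are therefore given as a description, with no test. The selection did not compare adipocytes with SVCs, and that difference was tested, although the minimum of 1 TPM in both EAT groups limits how far a member can lean to 1 fraction.

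The study's 12 libraries form 4 groups of 3, namely the adipocytes and the SVCs of each depot. All came from male C57BL/6J mice that were 8 weeks old when a high-fat diet began and that ate it for 10 weeks, so no group on another diet enters the comparisons. The fractions were separated with collagenase I, and the libraries held between 20707325 and 26349357 expected counts. Nothing in the labels ties replicates to separate animals. The p-values thus set a fraction difference only against the spread between these libraries within groups, and that spread may be technical.

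Epididymal fat is a visceral depot beside the male reproductive organs, and inguinal fat is a subcutaneous depot. Adipocytes store lipid and float after collagenase digestion, whereas the pelleted stromal vascular fraction holds adipocyte progenitors, endothelial cells, mesothelial cells and immune cells. Fat depots differ in developmental origin, and progenitors keep depot-specific patterns of developmental genes. In such bulk fractions, fewer cells of a type and less RNA per cell cannot be told apart. The genes carry UCSC transcript identifiers, and nothing used here pairs these with symbols. Members are therefore described mainly by their values, 4 of them by identifier, and the fractions' defining marker genes, gene roles and sequences were not analysed here.

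The depot ratio limited membership far more in SVCs than in adipocytes. Of 12516 genes with a mean of at least 1 TPM in both EAT groups, 799 met the ratio and the separation of libraries in adipocytes, which is 6.38% of those genes. In SVCs, 155 genes did so, or 1.24%. The 73 shared genes made up 9.14% of the adipocyte list and 47.1% of the SVC list. Before separation of the libraries was required, 85 genes had both ratios at 3 or more.

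Most members had moderate levels. The median over the 73 genes of the group mean was 5.74 TPM in EAT adipocytes (range 1.04 to 1567), against 0.693 TPM in IAT adipocytes. In SVCs the median was 33.9 TPM in EAT (range 1.14 to 2316) and 1.62 TPM in IAT. A mean of at least 100 TPM was reached by 10 members in EAT adipocytes and by 15 in EAT SVCs, against 4 in each IAT group.

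A few abundant genes carried most of the members' transcripts. The summed level of the 73 genes was 5990 ± 2184 TPM in EAT adipocytes and 892 ± 197 TPM in IAT adipocytes (SD, n = 3 each). In SVCs it was 8165 ± 649 TPM in EAT and 1504 ± 50.6 TPM in IAT (SD, n = 3 each). The 5 members with the highest mean over all EAT libraries of both fractions held 66.3% of that sum in EAT adipocytes and 53.9% in EAT SVCs.

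**Figure D1:**
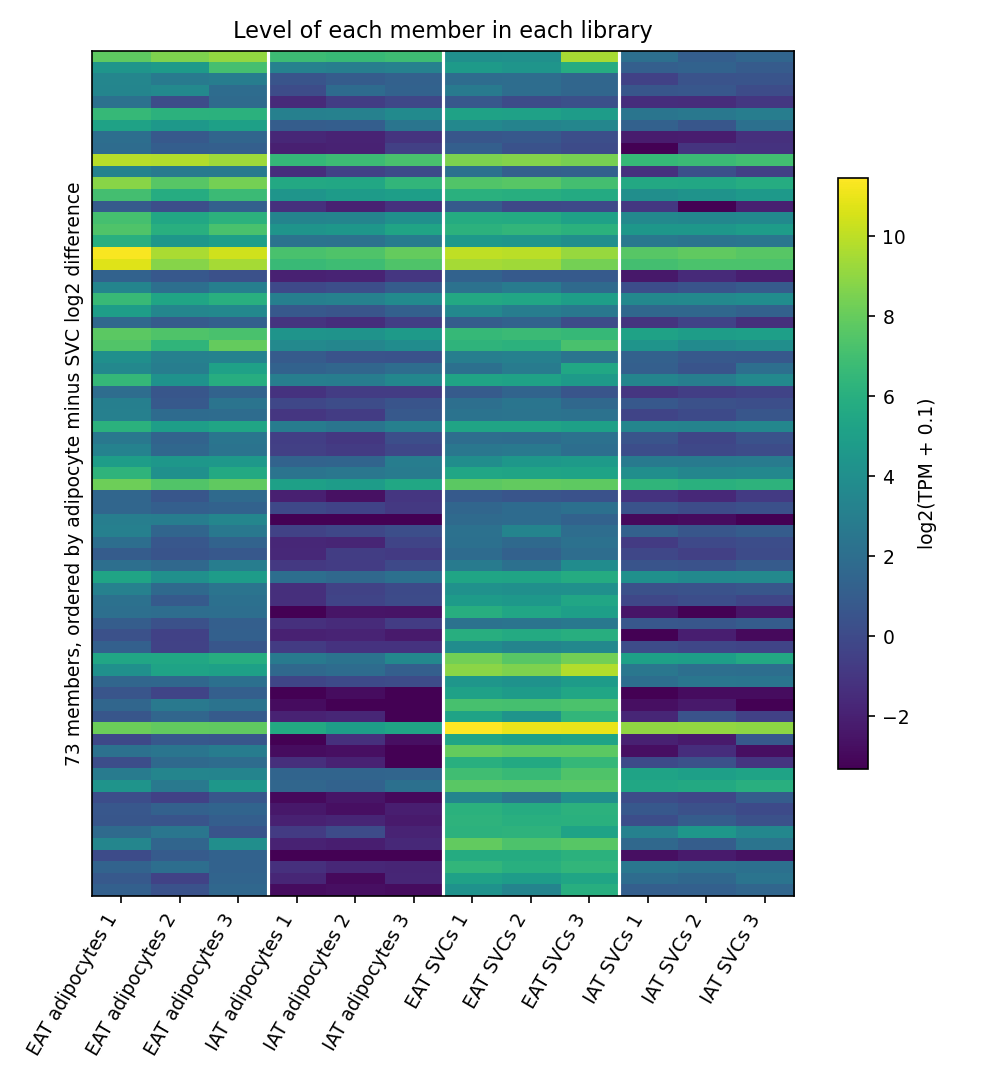
Level of each of the 73 members (rows) in each of the 12 libraries (columns), as log2(TPM + 0.1), with rows ordered by the adipocyte minus SVC difference. The EAT libraries lie above the IAT libraries of their fraction in every row because the members were selected for it, and the rows change from SVC-high to adipocyte-high along the vertical axis.

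The EAT/IAT ratio had a median of 6.75 in adipocytes (range 3.10 to 88.6) and 4.31 in SVCs (range 3.00 to 976). The ratio was larger in adipocytes for 46 members and larger in SVCs for 27. Many members lay close to the threshold in SVCs, where 34 of the 73 had a ratio under 4. A ratio of 10 was reached by 21 members in SVCs and by 12 in adipocytes, but the 0.1 TPM added to each mean lowers the ratio where the IAT level is near 0. In the count model, 23 members reached 10-fold in adipocytes and 22 did in SVCs. On the log2 scale of that model, the median EAT minus IAT difference was 2.89 in adipocytes and 2.17 in SVCs. Over all 15813 genes tested these medians were 0.02 and -0.01.

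The 3 members nearest to the threshold had SVC ratios of 3.00, 3.02 and 3.02 with adipocyte ratios of 3.49, 7.90 and 3.71. Just outside it lay genes with SVC ratios of 2.9952, 2.95 and 2.94 and adipocyte ratios of 5.34, 7.52 and 8.23. Separation between libraries was wide for most members. The lowest EAT library was at least 2 times the highest IAT library in 61 members among adipocytes and in 63 among SVCs, and it was under 1.5 times in 6 and 2 members.

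**Figure D2:**
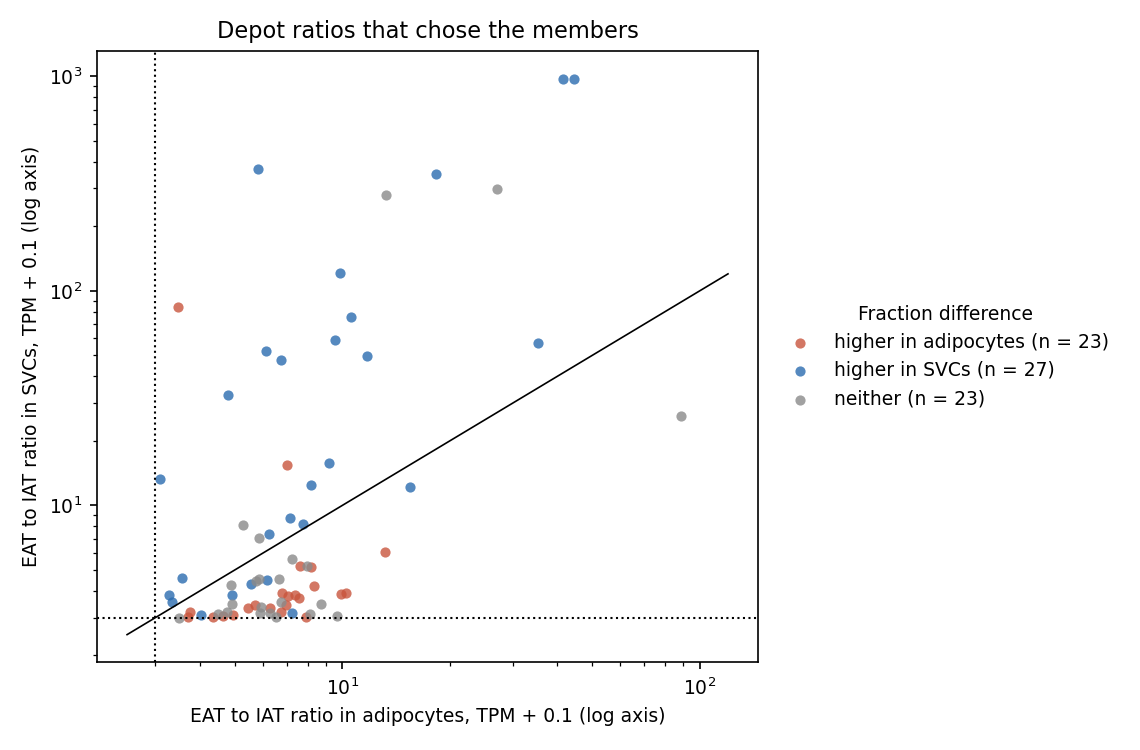
EAT/IAT ratio in SVCs (vertical, log axis) against that in adipocytes (horizontal, log axis), 1 point per member, coloured by the fraction in which the member was higher in the test over both depots. Dotted lines mark the threshold of 3 on each axis. The members higher in SVCs reach the largest SVC ratios, and those higher in adipocytes mostly lie just above 3 on the vertical axis. Of the 23 members in neither class, 12 also had an SVC ratio under 4.

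To ask in which fraction these depot-biased genes were expressed, adipocytes were compared with SVCs across all genes with edgeR's quasi-likelihood test and Benjamini-Hochberg adjustment, at an adjusted p below 0.05. All 73 members passed the filter on low counts. Averaged over both depots, 23 members (31.5%) were higher in adipocytes, where 32.8% of all genes tested were called. Another 27 members (37.0%) were higher in SVCs, where 42.3% of all genes were called, and 23 passed in neither direction. These shares lie near the background, and the members' median log2 difference was -0.04 against -0.16 over all genes.

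Within EAT alone, 28 members (38.4%) were higher in adipocytes and 27 (37.0%) in SVCs, against 30.4% and 32.0% of all genes. This comparison uses libraries and a minimum level that also entered the selection. Within IAT, 6 members (8.22%) were higher in adipocytes and 16 (21.9%) in SVCs, against 29.5% and 40.5% of all genes. The selection limited IAT levels only relative to EAT levels. The mean was under 1 TPM in 40 members in IAT adipocytes and in 24 in IAT SVCs, while 4 members in each IAT group had at least 100 TPM. How far the low counts lowered the number of calls within IAT was not tested.

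The members' large fraction differences lay almost all on the SVC side. At 4-fold or more with an adjusted p below 0.05 over both depots, 19 members were higher in SVCs and 1 was higher in adipocytes, where 11.9% and 6.05% of all genes were called. Within EAT, 25 members were at least 4-fold higher in SVCs, against 11.3% of all genes. No member was 4-fold higher in adipocytes within EAT, where the members' largest log2 difference was 1.98 and 4.76% of all genes were called. Without EAT SVC replicate 3, however, uc009gyw.1, described below, had a log2 difference of 5.03 there (edgeR adjusted p = 2.89e-06). At 16-fold or more within EAT, 13 of the 73 members were higher in SVCs, against 292 of all 15813 genes tested. The EAT levels also entered the selection, so all genes tested are not a like background for the members within EAT.

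**Figure D3:**
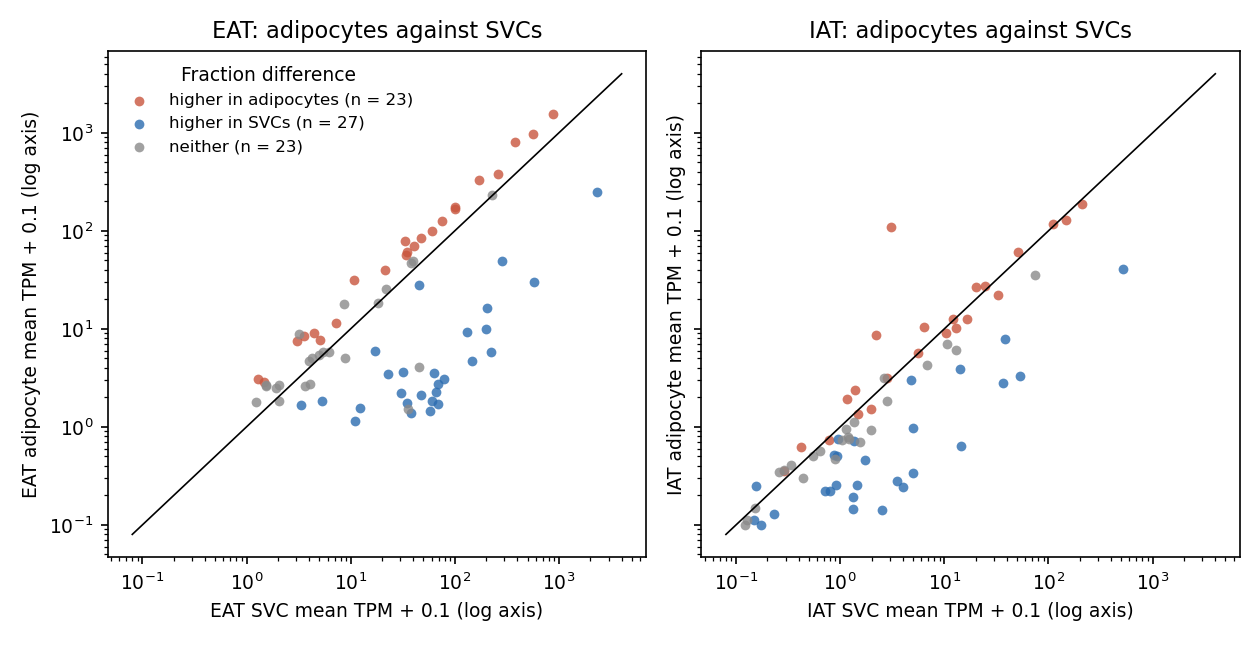
Mean TPM in adipocytes against SVCs (log axes), 1 point per member, in EAT and in IAT, with a line of equal levels. In EAT the members higher in SVCs form a set far on the SVC side, while the members higher in adipocytes stay close to the line, at 1.47 to 2.90 times the SVC level.

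The 23 members higher in adipocytes were the more abundant ones in the adipocyte fraction. Their median level was 69.3 TPM in EAT adipocytes (range 2.78 to 1567), 34.3 TPM in EAT SVCs, 10.2 TPM in IAT adipocytes and 6.32 TPM in IAT SVCs. Within EAT their adipocyte level had a median of 1.78 times the SVC level, so these genes were also readily detected in SVCs. The depot ratio had a median of 6.96 in adipocytes and 3.69 in SVCs, and it was larger in adipocytes for 21 of the 23. Members called in neither direction were similar in this, with medians of 6.28 and 3.54 and a larger ratio in adipocytes for 19 of 23.

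Levels of these 23 genes varied between libraries of EAT adipocytes. Their sum was 7259, 3297 and 4712 TPM in replicates 1 to 3 of EAT adipocytes and 637, 679 and 965 TPM in IAT adipocytes. In EAT SVCs it was 2952, 2841 and 2723 TPM, and in IAT SVCs it was 628, 683 and 709 TPM. The order of these sums rests partly on uc009gyw.1, described below, which had 742 TPM in EAT SVC replicate 3. Without it the sums were 7034, 2915 and 4177 TPM in EAT adipocytes and 2935, 2824 and 1981 TPM in EAT SVCs, so that the fractions overlapped in EAT.

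The 27 members higher in SVCs showed another level pattern. Their median was 60.5 TPM in EAT SVCs (range 3.20 to 2316) and 1.35 TPM in IAT SVCs. In adipocytes it was 3.00 TPM in EAT and 0.237 TPM in IAT, and 18 of the 27 were under 5 TPM in EAT adipocytes, close to the required minimum of 1 TPM. Their depot ratio had a median of 13.2 in SVCs and 7.15 in adipocytes, and it was larger in SVCs for 21 of the 27. In the count model the depot difference was larger in SVCs for 18 of the 27, and the median of the adipocyte minus SVC depot difference was -0.23 on the log2 scale. Their summed level was 5355, 4170 and 4997 TPM in EAT SVCs, 690, 721 and 715 TPM in IAT SVCs, and 472, 406 and 456 TPM in EAT adipocytes. In IAT adipocytes the sum was 75.1, 54.3 and 70.1 TPM.

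For the strongly SVC-biased members, the adipocyte fraction held a small share of the SVC level. Among the 19 that were at least 4-fold higher in SVCs over both depots, the EAT adipocyte level had a median of 4.98% of the EAT SVC level (range 2.47% to 15.4%). The median was 15.9% over all 1880 genes with such a difference, and a share under 5% was found for 11 of the 19 members (57.9%) and for 97 of the 1880 genes (5.16%). Both EAT levels in this share also entered the selection, so the 1880 genes are not a like background. How far the selection set the low EAT share was not tested. In IAT the medians were 14.5% for the members and 15.1% for all such genes. All these shares were formed after 0.1 TPM was added to each mean. Some of the 19 members were near 0 in IAT, where the added 0.1 TPM raised the share. The highest IAT share, 75.6%, belonged to a member with 0.0133 TPM in IAT adipocytes and 0.05 TPM in IAT SVCs. The close IAT medians thus do not show that the members resembled all such genes there. Whether the transcripts of the 19 members in the adipocyte fraction came from adipocytes or from remaining SVCs was not tested.

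The other 23 members, called in neither direction over both depots, were mixed in level, with means from 1.41 to 234 TPM in EAT adipocytes and from 1.14 to 225 TPM in EAT SVCs. Their median was 4.95 TPM in EAT adipocytes, 4.90 TPM in EAT SVCs, 0.633 TPM in IAT adipocytes and 1.03 TPM in IAT SVCs. Within EAT, 7 of them were higher in adipocytes and 2 in SVCs, against 30.4% and 32.0% of all genes, and 14 passed in no comparison. These 23 were picked on a comparison that includes the EAT libraries, so the shares over all genes are not a like background for them. In 1 of the 7, with 234 TPM in EAT adipocytes, the direction turned between depots: its log2 fraction difference was 0.47 within EAT (edgeR adjusted p = 0.0392) and -0.67 within IAT (adjusted p = 0.00591). A p that misses the threshold does not show equal levels in the 2 fractions.

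The member with the highest mean in any group was a single-transcript gene of 599 bases that was higher in SVCs. Its level was 2826, 2126 and 1996 TPM in EAT SVCs and 512, 537 and 500.0 TPM in IAT SVCs. In adipocytes it was 286, 239 and 227 TPM in EAT and 51.4, 31.5 and 39.4 TPM in IAT. Each SVC library thus lay above each adipocyte library, and the log2 difference over both depots was -2.99 (SE 0.16, edgeR adjusted p = 6.05e-09).

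The most abundant member of EAT adipocytes was a single-transcript gene of 3798 bases. It had 2594, 763 and 1344 TPM in EAT adipocytes and 1081, 985 and 570 TPM in EAT SVCs, so these groups overlapped. In IAT it had 148, 168 and 247 TPM in adipocytes and 195, 231 and 199 TPM in SVCs, which overlapped as well. Its log2 difference over both depots was 0.72 (SE 0.23, edgeR adjusted p = 0.0129).

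Among members with a mean of at least 10 TPM over the EAT libraries and no overlap of the fractions in either depot, 1 passed the test toward adipocytes, uc007wvc.1. Its level was 96.5, 72.7 and 68.3 TPM in EAT adipocytes and 36.5, 34.5 and 28.9 TPM in EAT SVCs. In IAT it was 8.60, 8.95 and 13.4 TPM in adipocytes and 5.33, 5.96 and 7.67 TPM in SVCs. The highest SVC library lay below the lowest adipocyte library within each depot. The log2 difference was 1.33 (SE 0.15, edgeR adjusted p = 6.52e-06), and it was 1.61 within EAT and 1.05 within IAT.

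On the SVC side, uc007chn.2 and uc007vrk.1 had the largest differences under the same conditions. Levels of uc007chn.2 were 18.4, 10.1 and 62.6 TPM in EAT SVCs, 2.11, 2.21 and 2.90 TPM in IAT SVCs, and 2.19, 1.21 and 2.96 TPM in EAT adipocytes. In IAT adipocytes it was near 0, with 3 counts over the 3 libraries. EAT SVC replicate 3 stood above the other libraries of its group. The log2 difference was -4.36 (SE 0.58, edgeR adjusted p = 2.03e-05).

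For uc007vrk.1, a single-transcript gene of 2818 bases, the libraries of a group lay closer together in SVCs. It had 35.3, 28.2 and 41.0 TPM in EAT SVCs and 3.59, 3.00 and 5.16 TPM in IAT SVCs. In adipocytes it had 1.63, 0.65 and 2.64 TPM in EAT and 0.20, 0.03 and 0.20 TPM in IAT. Adipocytes of EAT thus lay below even the SVCs of IAT. The log2 difference was -4.18 (SE 0.30, edgeR adjusted p = 8.84e-08), with -4.03 within EAT and -4.33 within IAT.

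A further member, uc009gyw.1, was chosen after its values were seen, because 1 library set its SVC ratio and its call within EAT. It is the 1 member at least 4-fold higher in adipocytes over both depots. Its level was 16.3, 17.0 and 742 TPM in EAT SVCs and 4.13, 2.04 and 2.73 TPM in IAT SVCs. In adipocytes it had 226, 382 and 535 TPM in EAT and 114, 98.1 and 117 TPM in IAT. EAT SVC replicate 3 lay above each adipocyte library, while the other SVC libraries lay below all of them.

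With all libraries, the EAT/IAT ratio of uc009gyw.1 in SVCs was 84.3, and without EAT SVC replicate 3 it was 5.46. The log2 fraction difference within EAT was 1.03 (SE 1.03, edgeR adjusted p = 0.397) with that library and 5.03 (adjusted p = 2.89e-06) without it. Over both depots it was 3.32 (SE 0.89, adjusted p = 0.00465) and 5.32 (adjusted p = 3.68e-08). In 3 members EAT SVC replicate 3 was at least 3 times the mean of the other EAT SVC libraries, at most 44.3 times, and what set that library apart for them was not tested.

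**Figure D4:**
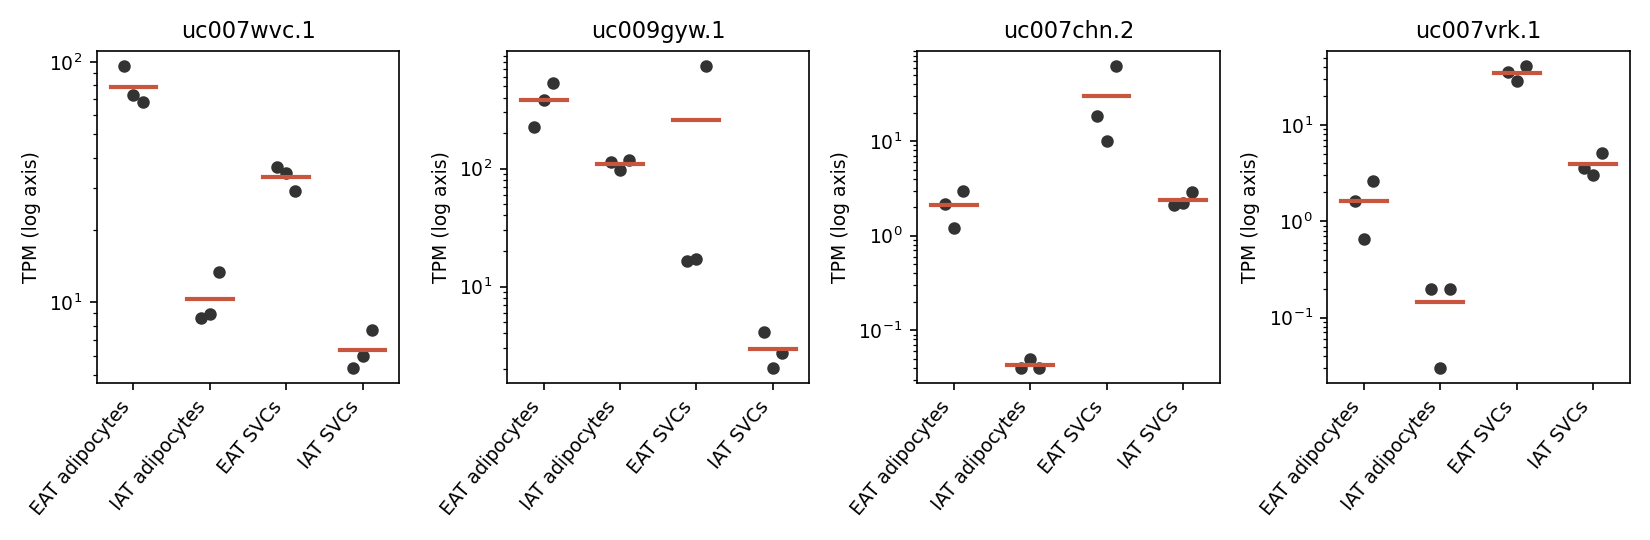
TPM in each library (points) and group mean (red bar) of uc007wvc.1, uc009gyw.1, uc007chn.2 and uc007vrk.1 in the 4 groups. The fractions separate within each depot for uc007wvc.1, uc007chn.2 and uc007vrk.1, whereas uc009gyw.1 has 1 EAT SVC library at 742 TPM beside 16.3 and 17.0 TPM.

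Several members were nearly silent in inguinal fat. In 7 of the 73, each IAT group had at most 10 counts summed over its libraries, and within EAT 6 of these were higher in SVCs and 1 in adipocytes, where 32.0% and 30.4% of all genes were called. The EAT levels in that comparison also entered the selection. The member with the largest SVC ratio had 10205 counts in EAT SVCs and 3 in IAT SVCs, a ratio of 3191 after scaling to library totals (95% exact interval 1092 to 15477, counting error only). In adipocytes the same gene had 363 EAT counts against 1 IAT count, a ratio of 384 (68.6 to 15224). For 2 members no count was found in IAT adipocytes. Set against 3 counts summed over the IAT group, their EAT adipocyte levels were at least 39.5-fold and 313-fold higher.

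Replicates of EAT adipocytes differed in step across members. Among the 23 adipocyte-higher members, EAT adipocyte replicate 1 was the highest of its group in 19 (82.6%), against 20.5% of all 5184 genes called higher in adipocytes. The same held for 17 of the 23 members called in neither direction (73.9%), against 44.8% of all such genes. Replicate 2 was the lowest for 51 of the 73 members (69.9%), near the 66.5% of all genes tested. Its median log2 distance from the mean of the other replicates was -0.86 over all members, against -0.46 over all genes tested. By class, it was -1.03 in the adipocyte-higher members, -0.92 in those called in neither direction and -0.29 in the SVC-higher members. The distance was -0.25 in the 36 members shorter than the members' median length of 2036 bases and -1.14 in the 37 others. All genes tested were not split by length, so this difference is not shown to be particular to the members. Without that library the selection held 79 genes, and of the 73 members 26 were higher in adipocytes and 27 in SVCs over both depots. What set replicate 2 apart was not tested.

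Shifts of single libraries were also seen in the other groups. IAT adipocyte replicate 3 was above the mean of the others in 22 of the 23 adipocyte-higher members (median log2 distance 0.60). It was also above in 20 of the 23 members called in neither direction (0.54), but in only 12 of the 27 SVC-higher members (-0.05), with -0.04 over all genes. In EAT SVCs, replicate 3 was below the others in 19 of the 23 adipocyte-higher members (-0.45) and in 16 of the 23 called in neither direction (-0.27). It was above them in 21 of the 27 SVC-higher members (0.25), with -0.04 over all genes. EAT SVC replicate 2 was below the others in 26 of the 27 SVC-higher members (-0.39), with 0.08 over all genes, and it was the lowest of its group in 22 of them (81.5%), against 20.3% of all genes called higher in SVCs. The part of the fractions' cell content in these shifts was not tested. The median coefficient of variation of the members was 40.7% in EAT adipocytes and 20.2% in EAT SVCs, against 29.4% and 10.3% over all genes tested.

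**Figure D5:**
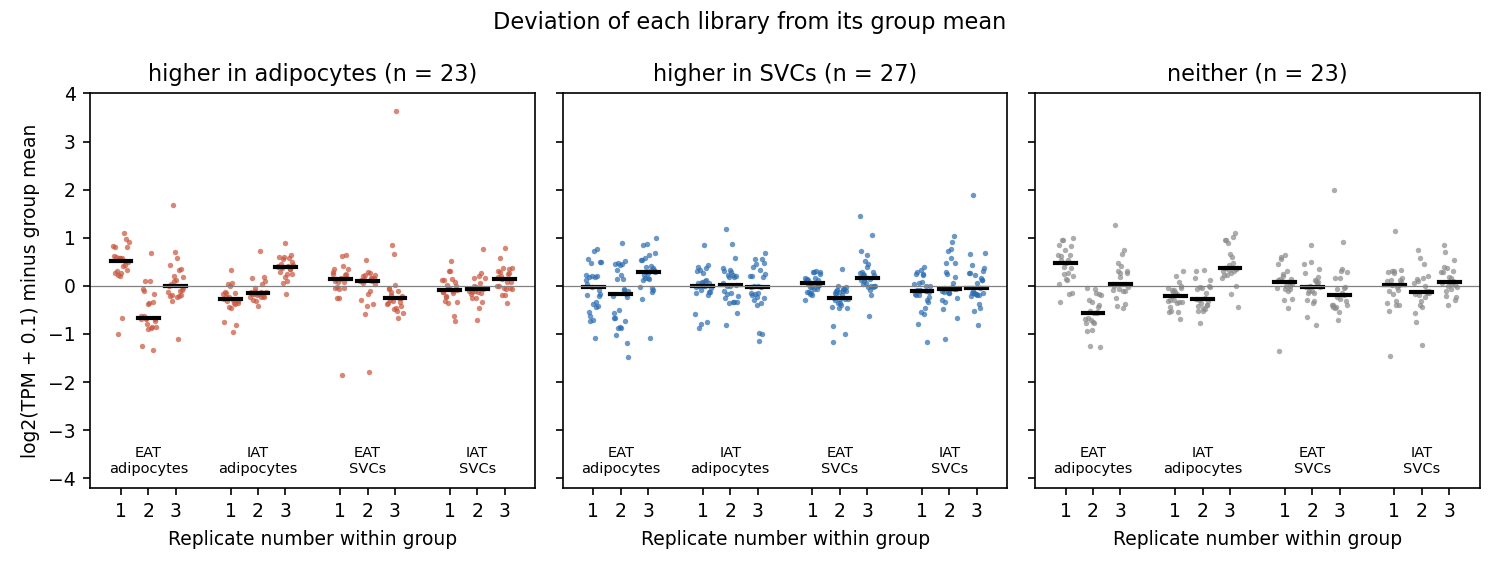
Deviation of each library from its group mean, as log2(TPM + 0.1), for members higher in adipocytes, higher in SVCs or in neither (panels), with 1 point per member and a black bar at the median. EAT adipocyte replicate 2 lies low and IAT adipocyte replicate 3 lies high for the adipocyte-higher members and for those in neither. For the SVC-higher members EAT SVC replicate 2 lies low.

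Members had shorter gene models than the genes they were drawn from. The median length was 2036 bases (quartiles 1267 and 2840), against 2625 bases for genes with at least 1 TPM in both EAT groups. A single transcript was listed for 36 members (49.3%), against 31.3% of those genes. Strand use in the counting is not given here, so members that overlap another gene or share reads with a near-identical copy are uncertain.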

How the data were processed

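RNA was measured by sequencing in 12 libraries, grouped by the samples' labels. Each deposited table lists, for every gene, its length, RSEM's expected counts, TPM and FPKM, per the file headers; all were made by the authors. RSEM 1.2.25, Bowtie2 2.2.6, limma and the builds GRCm38 and mm10 are named in the submitters' processing notes, with no role.

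Members were found from the deposited TPM. Expected counts were rounded and fitted with edgeR 4.0.16 (R 4.3.3): TMM scaling, filterByExpr (15813 genes kept), 1 coefficient per group over all 12 libraries, 8 residual degrees of freedom, and adjustment over all genes tested. The code was tested on simulated data. DESeq2 1.42.0, other scalings, filters, FPKM, thresholds and leaving out libraries were alternatives.

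The members and lists were chosen with earlier results of these data known. With no symbols, the rule named up to 2 members per direction with the largest fraction difference over both depots, among those with adjusted p below 0.05, at least 10 TPM over the EAT libraries and no overlap of the fractions within either depot. It gave 1 adipocyte-higher and 2 SVC-higher members.

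Deviations of same-numbered libraries from their group means correlated above 0.1 in each pair between the fractions of IAT (r = 0.225, 0.148 and 0.227) and between the SVCs of both depots (r = 0.187, 0.153 and 0.149). They did not in each pair between the fractions of EAT (r = 0.195, -0.061 and 0.040) or between the adipocytes of both depots (r = 0.007, 0.128 and 0.156).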

Additional observations from a re-analysis of the deposited data

How the results depend on the processing

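The number of members moved most with the selection itself. It was 30 with 1 TPM added before the ratios, 254 with a ratio of at least 2 and 36 with a ratio of at least 4, against 73. Leaving out 1 library at a time gave 62 to 80 members, and 43 genes were members in each of these selections. FPKM in place of TPM gave 49.

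Leaving out libraries moved the fraction counts over both depots to between 18 and 26 members higher in adipocytes and between 25 and 29 higher in SVCs. Within IAT these ranges were 5 to 9 and 16 to 20, and within EAT 24 to 32 and 27 to 28. DESeq2 called 10 members higher in adipocytes within IAT, against 6 with edgeR, and edgeR with DESeq2's size factors called 9. The cause was not tested. No alternative but DESeq2 moved a fraction count by over 1.5 times, and none called a member in the opposite direction. Over both depots, 17 of the 23 adipocyte-higher and 24 of the 27 SVC-higher members kept their call under each alternative. Scaling by library size alone moved the all-gene median fraction difference over both depots by -0.19, and DESeq2's size factors moved it by 0.10.

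With the replicate number as a block, pairing the libraries, 23 members were higher in adipocytes and 28 in SVCs over both depots, 5 and 19 within IAT, and 32 and 27 within EAT. Differences of the members named by rule kept their direction and their side of the threshold under each alternative, with adjusted p of 5.44e-16 to 4.35e-05 for uc007wvc.1, 8.76e-14 to 0.000153 for uc007chn.2 and 8.12e-40 to 1.02e-06 for uc007vrk.1. Low counts in IAT limit the precision of fraction differences there.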

Other observations

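Some members lay next to each other in the files' running gene numbers, which need not follow genome order. Numbers 7049, 7050 and 7052 were members, 1 higher in adipocytes, 1 higher in SVCs and 1 in neither. Numbers 12713 and 12714 were a further such pair, at 4.60 and 810 TPM in EAT adipocytes, with adipocyte EAT/IAT ratios of 5.92 and 6.96. Whether these genes share reads was not tested.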
